A study of Homo sapiens with 18 samples.

Results

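Small nucleolar RNA (snoRNA) host genes are a family of non-coding genes whose introns carry snoRNAs, and they were followed here through RAS-induced senescence and treatment with inhibitors of N-myristoyltransferase (NMT), the enzyme that attaches myristate to the amino-terminal glycine of proteins. Members were the rows of the gene count table whose symbol is SNHG followed by a number, together with GAS5, ZFAS1 and EPB41L4A-AS1. This rule gave 31 of 28266 gene symbols, and no measured value was used in it. Of these 31 genes, 27 had enough reads to be tested. The other 4 did not pass the filter on low counts, and their highest count in any library was 1 for SNHG22, 2 for SNHG27, 8 for SNHG31 and 10 for SNHG25.

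A host gene is transcribed by RNA polymerase II and spliced, and its snoRNAs are trimmed out of the excised introns. Box C/D snoRNAs guide ribose methylation and box H/ACA snoRNAs guide pseudouridylation of ribosomal RNA, while the related scaRNAs act on spliceosomal RNAs in Cajal bodies. Many host transcripts, like the mRNAs of ribosomal proteins, start with a C followed by a run of pyrimidines (a terminal oligopyrimidine, or TOP, start), which ties their use by ribosomes to growth signals. The spliced host RNA often has only short open reading frames, and for several hosts, GAS5 among them, it is removed by nonsense-mediated decay when ribosomes read it. GAS5 (growth arrest-specific 5) took its name from its accumulation in cells that stop growing.

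The cells were IMR90 ER:RAS, human lung fibroblasts carrying a retrovirally delivered fusion of the oestrogen receptor to oncogenic RAS, which 4-hydroxytamoxifen (4OHT) activates. All 6 groups carried this fusion. Cells received 100 nM 4OHT (senescent) or its DMSO vehicle (control) for 7 days, then 300 nM IMP1088, 1.5 µM DDD86481 or DMSO for a further 3 days, and were collected at day 10, with 3 libraries in each of the 6 groups. IMP1088 and DDD86481 are both NMT inhibitors. Whether all libraries came from 1 transduced population is not stated in the sources used here. The study describes its replicates in this experiment as independent experiments, but the sample labels do not tie libraries to cultures, and p-values measure the spread between these libraries.

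Polyadenylated RNA was sequenced to between 16143716 and 23189950 counts per library. Levels are given as CPM, the reads of a gene scaled by the library's total and its TMM factor, and 3 counts, taken as the floor of detection, were worth 0.121 to 0.187 CPM. The cells had the marks of the labelled states: in senescent against control DMSO libraries the cell cycle inhibitors CDKN1A and CDKN2B were higher (log2 difference 2.50 and 3.10) and the lamin LMNB1 and the proliferation marker MKI67 were lower (−3.69 and −7.04). Among 8 fibroblast markers, VIM was higher (1.21) and 7 were lower, DCN the most (−8.62), and the summed level of the 8 was 24200 to 30300 CPM in control DMSO and 16400 to 16700 CPM in senescent DMSO. Markers of epithelial, immune and endothelial cells summed to 16.1 to 20.2 CPM in control DMSO and 125 to 155 CPM in senescent DMSO, nearly all of it CD68 (mean 17.5 and 132 CPM), with CD3E and KRT5 at 0 in the control and senescent DMSO libraries. In bulk RNA, fewer cells of a type and less RNA per cell cannot be told apart.

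The library control DMSO replicate 3 stood apart from the other 2 of its group. Its 31 host genes summed to 2180 CPM against 1310 and 1580 CPM, and its 86 ribosomal protein genes to 78500 CPM against 45000 and 53000 CPM. Every comparison that uses control DMSO is therefore also given without it where its result changes.

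RefSeq (GRCh38.p14) places at least 1 snoRNA or scaRNA within the bounds of 29 of the 31 host genes, 146 in all: 121 box C/D, 21 box H/ACA and 4 scaRNAs. None lies within SNHG27 or SNHG28. SNHG14, the long paternally expressed transcript of the Prader-Willi region, holds 83 of them, GAS5 holds 11, SNHG1 holds 8 and SNHG12 and SNHG17 hold 4 each. The snoRNAs themselves were almost unseen in these libraries, as poly(A) selection does not capture them: their 568 rows held 932 to 1834 counts per library, of which SNORA104 alone took 318 to 1024. The values below are therefore those of the host transcripts and say nothing of the snoRNAs' own levels.

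The first bases of the hosts are shown because the TOP start is the sequence feature that the family is known to share with ribosomal protein genes. Each window is 50 bases of GRCh38.p14 (RefSeq), written 5′ to 3′ on the gene's own strand, with 20 bases before the annotated start and 30 bases from it on. Capitals mark a pyrimidine run of at least 4 bases that begins with C at the annotated first base. The 9 tested hosts with such a run were ZFAS1 at chr20:49278622-49278671 (+ strand), SNHG5 at chr6:85678704-85678753 (− strand), SNHG12 at chr1:28581844-28581893 (− strand), SNHG32 at chr6:31834896-31834945 (+ strand), SNHG7 at chr9:136728155-136728204 (− strand), SNHG26 at chr7:22854220-22854269 (+ strand), SNHG4 at chr5:139274081-139274130 (+ strand), SNHG18 at chr5:9546180-9546229 (+ strand) and SNHG19 at chr16:2155329-2155378 (− strand):
ZFAS1: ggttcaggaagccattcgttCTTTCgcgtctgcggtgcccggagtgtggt
SNHG5: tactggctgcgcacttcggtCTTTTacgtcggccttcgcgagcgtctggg
SNHG12: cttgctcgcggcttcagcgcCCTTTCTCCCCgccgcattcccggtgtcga
SNHG32: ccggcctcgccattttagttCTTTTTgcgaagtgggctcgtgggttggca
SNHG7: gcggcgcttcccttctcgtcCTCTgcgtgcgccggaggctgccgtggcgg
SNHG26: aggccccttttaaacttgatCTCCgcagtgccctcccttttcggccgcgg
SNHG4: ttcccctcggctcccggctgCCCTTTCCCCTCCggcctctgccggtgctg
SNHG18: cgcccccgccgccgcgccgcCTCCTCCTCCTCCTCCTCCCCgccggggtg
SNHG19: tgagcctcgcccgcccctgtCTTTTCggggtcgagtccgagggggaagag

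No run of this length was annotated at the first base of GAS5 at chr1:173869016-173869065 (− strand), SNHG1 at chr11:62855856-62855905 (− strand), SNHG3 at chr1:28505923-28505972 (+ strand), EPB41L4A-AS1 at chr5:112160506-112160555 (+ strand), SNHG8 at chr4:118278742-118278791 (+ strand), SNHG20 at chr17:77088623-77088672 (+ strand) or SNHG29 at chr17:16438967-16439016 (+ strand), and they are shown for comparison. Several of these have a pyrimidine run within a few bases of the annotated start (SNHG1, SNHG3, SNHG8), and a start annotated a few bases off would hide a TOP start:
GAS5: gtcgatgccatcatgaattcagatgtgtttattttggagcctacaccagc
SNHG1: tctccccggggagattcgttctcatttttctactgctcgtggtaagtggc
SNHG3: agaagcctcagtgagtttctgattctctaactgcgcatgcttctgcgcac
EPB41L4A-AS1: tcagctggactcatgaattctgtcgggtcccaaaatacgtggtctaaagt
SNHG8: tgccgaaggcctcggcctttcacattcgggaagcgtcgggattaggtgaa
SNHG20: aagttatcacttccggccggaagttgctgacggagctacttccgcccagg
SNHG29: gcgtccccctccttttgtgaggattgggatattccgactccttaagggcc

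Of the 24 tested hosts with a RefSeq promoter sequence, 9 had the run at the annotated first base (37.5%): SNHG4, SNHG5, SNHG7, SNHG12, SNHG18, SNHG19, SNHG26, SNHG32 and ZFAS1. Of the ribosomal protein genes with a promoter sequence, 45 of 68 had it (66.2%), against 738 of 11104 tested genes (6.65%). Promoters, 250 bases before to 50 bases after the start, were also searched on both strands for 4 motifs, with overlapping matches allowed. CACGTG was found in 2 of 27 host promoters, SNHG7 and SNHG30 (7.41%, against 7.43% of 27305 promoters), and CCGGAAG in SNHG20 and SNHG26 (7.41%, against 10.7%). TGATGNAA, the core of the element read by C/EBP and ATF dimers, and TGACGTCA were in none of the 27, against 3.67% and 1.98% of all promoters.

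To examine the hosts in senescence, senescent DMSO libraries were compared with control DMSO libraries. Most host transcripts were lower in senescent cells. Of the 27 hosts tested, 19 were called lower (70.4%) and 3 higher (11.1%) at an adjusted p under 0.05 by edgeR's quasi-likelihood test, where 36.0% and 32.5% of all 14341 genes tested were called lower and higher. The median log2 difference was −0.87 over the hosts and −0.05 over all genes tested. The summed level of the 31 genes was 1310, 1580 and 2180 CPM in control DMSO and 847, 907 and 922 CPM in senescent DMSO, so that all senescent libraries were below all control libraries. Without control DMSO replicate 3 the calls were 3 higher and 18 lower, with a host median of −0.67. That fit called 10027 of 14493 genes tested, with a median of −0.04 over all genes, against 9827 of 14341 with all libraries. Upper quartile scaling moved the median of all genes to −0.21 and the host median to −1.03, with 2 hosts higher and 20 lower. That scaling called 9944 of 14341 genes.

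**Figure D1:**
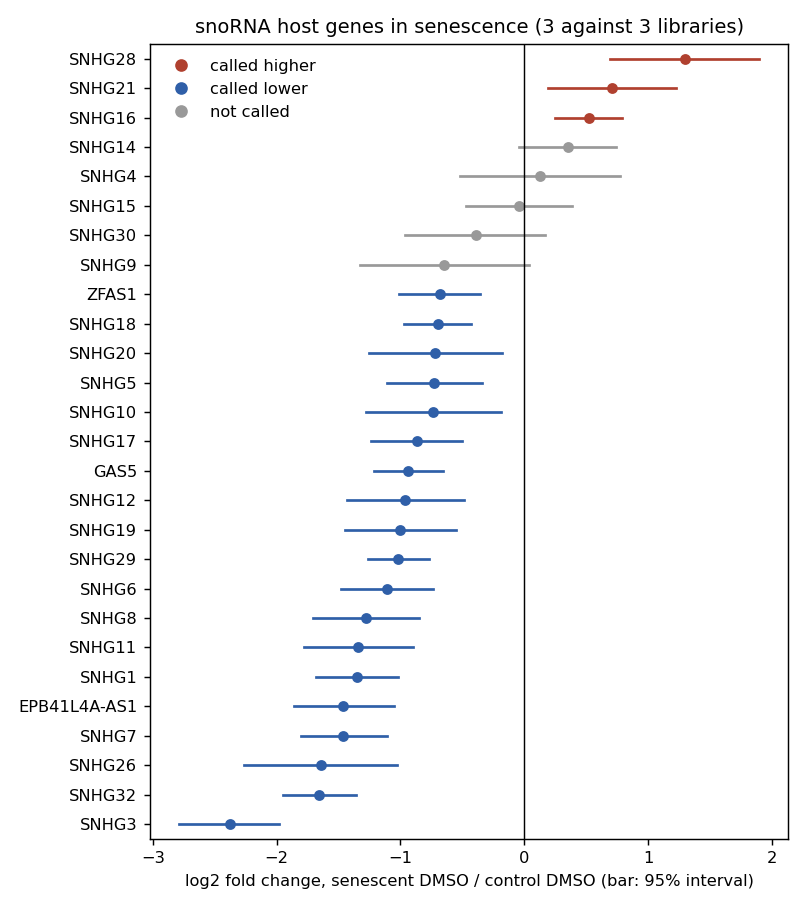
Log2 fold change of each of the 27 tested host genes in senescent DMSO over control DMSO (3 libraries each), with the 95% interval of the edgeR fit as a bar. From SNHG3 at −2.38 up to ZFAS1 at −0.68 the 19 genes called lower lie left of 0 with their whole intervals, and only SNHG28, SNHG21 and SNHG16 were called higher.

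SNHG3, the host of the box H/ACA snoRNAs SNORA73A and SNORA73B, had the largest difference. It was at 15.6, 24.7 and 24.7 CPM in control DMSO and at 3.70, 4.42 and 4.29 CPM in senescent DMSO. The groups were far apart, a 5.22-fold lower level (log2 −2.38 ± 0.19 SE, adjusted p = 9.17e-10). SNHG32, which holds SNORD48 and SNORD52, was at 230, 275 and 392 CPM in control and 82.7, 100 and 102 CPM in senescent cells. Its highest senescent library was below its lowest control library, and the difference was 3.15-fold (−1.66 ± 0.14, adjusted p = 2.11e-09). SNHG26, with a pyrimidine run at its annotated start, was at 2.02, 2.98 and 2.49 CPM against 0.679, 1.06 and 0.659 CPM. This lower level of 3.12-fold (−1.64 ± 0.29, adjusted p = 5.2e-05) rests on a gene near 1 CPM in senescent cells.

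The best known hosts were lower too, by unequal amounts. GAS5 was at 118, 137 and 195 CPM in control DMSO and at 77.3, 78.1 and 79.8 CPM in senescent DMSO. All senescent libraries lay below all control libraries, and the level was 1.91-fold lower (−0.94 ± 0.13, adjusted p = 2.92e-06). ZFAS1, named for its position antisense to the promoter of ZNFX1, was at 84.6, 107 and 159 CPM against 70.5, 74.7 and 72.9 CPM. Its groups did not overlap, and its difference of 1.61-fold was the smallest among the hosts called lower (−0.68 ± 0.16, adjusted p = 0.000607). Without control DMSO replicate 3, the highest of these libraries, it was −0.40 (adjusted p = 0.00325).

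EPB41L4A-AS1, the host of SNORA13, was at 15.5, 20 and 25 CPM in control DMSO and 5.86, 7.47 and 8.57 CPM in senescent DMSO. The groups were well apart, at 2.75-fold (−1.46 ± 0.19, adjusted p = 1.22e-06). SNHG1, among the first hosts described whose spliced exons encode no protein, was at 20.6, 20.8 and 24.1 CPM against 7.16, 10.1 and 8.41 CPM, again without overlap. Its level was 2.55-fold lower (−1.35 ± 0.16, adjusted p = 2.57e-07). SNHG12 was at 3.91, 5.51 and 5.08 CPM against 2.28, 2.68 and 2.47 CPM, lower in every senescent library (−0.96 ± 0.22, adjusted p = 0.000799). SNHG15, the host of SNORA9, was the exception among the well known hosts. It was at 6.77, 7.76 and 12.2 CPM against 7.90, 8.34 and 9.51 CPM, with the senescent values inside the control range (−0.04, 95% interval −0.47 to 0.39, adjusted p = 0.861).

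SNHG7, which holds the box H/ACA snoRNAs SNORA17A and SNORA17B, and SNHG8, the host of SNORA24, were among the lower genes that are taken up again below. SNHG7 was at 40.8, 54.4 and 73.0 CPM in control DMSO and 17.8, 22.2 and 21.2 CPM in senescent DMSO (2.74-fold, −1.46 ± 0.16, adjusted p = 1.26e-07). SNHG8 was at 40.3, 58.2 and 87.8 CPM against 22.2, 25.6 and 28.7 CPM (−1.28 ± 0.21, adjusted p = 1.47e-05). For both genes all senescent libraries were below all control libraries. SNHG29 and SNHG5, hosts of box C/D snoRNAs, were lower by smaller amounts, −1.02 and −0.73 (adjusted p = 2.11e-07 and 0.00174), and without control DMSO replicate 3 SNHG5 was at −0.38 (adjusted p = 0.0166). SNHG20 was at 1.57, 2.05 and 2.49 CPM against 0.988, 1.49 and 1.21 CPM, and its call (−0.72 ± 0.26, adjusted p = 0.0188) was lost without control DMSO replicate 3 (−0.56, adjusted p = 0.0818), without senescent DMSO replicate 1 (−0.58, 0.0843) and without senescent DMSO replicate 3 (−0.70, 0.0511). SNHG6 was at 34.6, 45.6 and 70.1 CPM against 24.2, 22.2 and 23.3 CPM, all senescent libraries lower (−1.11 ± 0.18, adjusted p = 1.39e-05). The other 5 hosts called lower, SNHG10, SNHG11, SNHG17, SNHG18 and SNHG19, ranged from −1.34 to −0.70, and the call of SNHG10 (−0.74, adjusted p = 0.0168) was lost without senescent DMSO replicate 1 (−0.56, 0.0897).

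The 3 hosts called higher in senescent cells behaved unlike the rest. SNHG16, which holds 3 box C/D snoRNAs, was at 52, 58.1 and 79.9 CPM in control DMSO and 88.5, 99.2 and 84.3 CPM in senescent DMSO, higher in every senescent library (0.52 ± 0.13, adjusted p = 0.00124). SNHG28 was at 0.484, 0.684 and 0.697 CPM against 1.30, 1.81 and 1.48 CPM (1.30 ± 0.29, adjusted p = 0.000522). SNHG21 was at 1.01, 1.05 and 1.14 CPM against 1.23, 2.05 and 1.92 CPM (0.71 ± 0.25, adjusted p = 0.0158), a narrow gap at a low level. The SNHG21 call was lost without control DMSO replicate 2 (0.66, 0.0519) and without senescent DMSO replicate 2 or 3 (0.58 with 0.0772, and 0.63 with 0.0613), and under upper quartile scaling (0.55, 0.0561). SNHG14 and SNHG4 were not called (0.35 and 0.13, adjusted p = 0.107 and 0.73). SNHG14 was at 41.7, 36.6 and 19.6 CPM in control DMSO against 40.2, 41.6 and 42.9 CPM, and its low value in control DMSO replicate 3 went with the highest values of GAS5 and ZFAS1 in that library.

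Genes that overlap a host's exons bear on these values, since the libraries were directional and a first-strand alignment is named, but the strand setting of the counting step is not given in the sources used here. In GENCODE, 10 of the 27 tested hosts share at least 10% of their exon bases with another gene. On the strand opposite to SNHG8, PRSS12 covers 37.6% of its exon bases. PRSS12 was at a mean of 321 CPM in control DMSO and 9.42 CPM in senescent DMSO (−5.09, adjusted p = 1.45e-16), so it was lower where SNHG8 was lower. Opposite to SNHG28, SLAMF8 covers 19.4% and was listed at 0 in control DMSO and at a mean of 2.48 CPM in senescent DMSO, so it was higher where SNHG28 was higher. A same-strand gene that is no row of the table, ENSG00000256029, covers 90.8% of SNHG28. The same holds for ENSG00000252690, over 72.9% of SNHG21, and ENSG00000285565, over 23.2% of SNHG32. FSD2 lies opposite to SNHG21, over 34.1% of its exon bases, and was at a mean of 0.0537 CPM in control DMSO and 0 in senescent DMSO. Opposite to SNHG7, DIPK1B covers 30.3% and was at 4.08 CPM in control and 0.429 CPM in senescent cells, far below SNHG7. The genes opposite to EPB41L4A-AS1 (EPB41L4A, 51.2%) and SNHG6 (MCMDC2, 58.9%) were below 0.3 CPM on average in every group. The part of these neighbours in the hosts' counts was not tested.

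To examine whether NMT inhibition moved the hosts in senescent cells, each inhibitor was compared with the senescent DMSO libraries. These are the same 3 libraries as in the comparison of senescent with control cells, so the comparisons are not independent of each other. With IMP1088, 7 hosts rose (25.9%) and 2 fell (7.4%), where 20.6% and 23.9% of all genes tested rose and fell. With DDD86481, 6 rose (22.2%) and 1 fell (3.7%), where 20.1% and 23.1% of all genes rose and fell. The share that rose was thus near the background for both inhibitors and the share that fell was below it. The median log2 change over the hosts was 0.07 with IMP1088 and 0.16 with DDD86481, and −0.04 over all genes with either. The summed level of the 31 hosts was 847, 907 and 922 CPM in senescent DMSO, 1120, 1110 and 1140 CPM with IMP1088 and 1190, 1120 and 1030 CPM with DDD86481. All inhibitor libraries were above all senescent DMSO libraries in this sum and below the lowest control DMSO library, at 1310 CPM. SNHG29 was the largest part of this sum, at a mean of 269 CPM in senescent DMSO, 365 CPM with IMP1088 and 348 CPM with DDD86481. Of the 27 hosts tested, 18 were not called with IMP1088 and 20 were not called with DDD86481, so the sum does not stand for each host. The fibroblast markers moved along with the inhibitors: their summed level was 16400 to 16700 CPM in senescent DMSO, 11700 to 12000 CPM with IMP1088 and 11300 to 12100 CPM with DDD86481, with 5 of 8 lower and 2 higher in each comparison. The 8 senescence check genes summed to 14400 to 15700 CPM, 11800 to 12600 CPM and 12300 to 12900 CPM, with 4 lower and 1 higher in each. Their part in the host values was not tested.

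**Figure D2:**
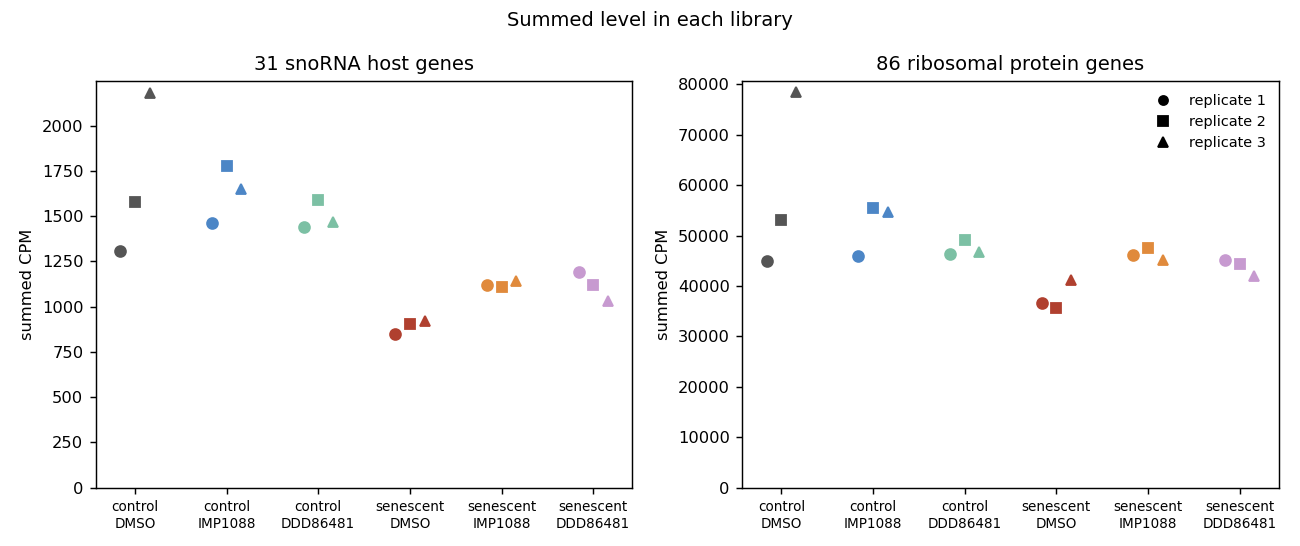
Summed CPM per library of the 31 host genes (left) and of 86 ribosomal protein genes (right) in the 6 groups, with 1 point per library and its shape showing the replicate number. Senescent DMSO libraries were lowest in both panels, 847 to 922 CPM for the hosts, and control DMSO replicate 3 was highest in both, 2180 CPM for the hosts. SNHG29 was the largest part of the host sum in every group.

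SNHG7 had the largest response to both compounds. It was at 17.8, 22.2 and 21.2 CPM in senescent DMSO, 49.9, 44.3 and 48 CPM with IMP1088 and 61.4, 49.9 and 42.9 CPM with DDD86481. Every treated library was above every untreated one, and the rise was 2.32-fold with IMP1088 (1.22 ± 0.16, adjusted p = 5.75e-06) and 2.52-fold with DDD86481 (1.33 ± 0.16, adjusted p = 1.98e-06). These levels lie within the range of the control DMSO libraries, 40.8 to 73.0 CPM. DIPK1B on the opposite strand was below 1 CPM in all 3 senescent groups on average and did not pass the test with either inhibitor.

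SNHG8 was at 22.2, 25.6 and 28.7 CPM in senescent DMSO, 44.6, 43 and 45.4 CPM with IMP1088 and 60.5, 47.6 and 37.9 CPM with DDD86481, without overlap (0.80 ± 0.21, adjusted p = 0.00367; 0.93 ± 0.21, adjusted p = 0.00106). PRSS12 on its opposite strand changed by −0.44 with IMP1088 (adjusted p = 0.0291) and −0.27 with DDD86481 (adjusted p = 0.183), the other way. EPB41L4A-AS1 was at 5.86, 7.47 and 8.57 CPM in senescent DMSO, 13.5, 13.9 and 10.9 CPM with IMP1088 and 18.1, 12.3 and 11.7 CPM with DDD86481. Its groups did not overlap either (0.81 ± 0.20, adjusted p = 0.00238; 0.94 ± 0.20, adjusted p = 0.000637), and all its treated senescent libraries but 1 stayed below its lowest control DMSO library. SNHG20, which holds the scaRNA SCARNA16, was at 0.988, 1.49 and 1.21 CPM in senescent DMSO, 2.26, 2.74 and 2.24 CPM with IMP1088 and 2.95, 2.09 and 1.84 CPM with DDD86481, higher in every treated library. It rose with both (0.97 ± 0.26, adjusted p = 0.0046; 0.90 ± 0.26, adjusted p = 0.00854), and the DDD86481 call was lost without senescent DDD86481 replicate 1 (0.68, 0.0614).

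SNHG29 and SNHG5 also rose with both inhibitors, by less. SNHG29, which holds 3 box C/D snoRNAs, was at 260, 269 and 278 CPM in senescent DMSO, 363, 354 and 379 CPM with IMP1088 and 358, 357 and 330 CPM with DDD86481, higher in every treated library (0.44 ± 0.12, adjusted p = 0.00448; 0.37 ± 0.12, adjusted p = 0.0145). Its DDD86481 call was lost without senescent DMSO replicate 1 (0.35, 0.0525). SNHG5, the host of SNORD50A and SNORD50B, was at 100, 99.7 and 111 CPM in senescent DMSO, 140, 150 and 144 CPM with IMP1088 and 183, 143 and 124 CPM with DDD86481. Its treated libraries were all higher (0.48 ± 0.19, adjusted p = 0.0407; 0.53 ± 0.19, adjusted p = 0.0258), but the IMP1088 call was lost on leaving out any 1 of the 6 libraries (adjusted p = 0.059 to 0.107) and the DDD86481 call without senescent DMSO replicate 1 or 2 or senescent DDD86481 replicate 1 (0.37, 0.156 without the last). SNHG18 rose with IMP1088 (0.48 ± 0.13, adjusted p = 0.00539), and with DDD86481 it was at 0.31 (adjusted p = 0.0661).

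The hosts that fell differed between the compounds in which of them passed the test, although no difference between compounds was called (below). With IMP1088, SNHG4 fell from 1.48, 1.74 and 0.934 CPM to 0.684, 0.727 and 0.392 CPM (−1.18 ± 0.36, adjusted p = 0.0108), and with DDD86481 it was at 1.09, 1.20 and 0.613 CPM (−0.49, adjusted p = 0.251). SNHG4 lies within MATR3, with which it shares 14% of its exon bases on the same strand, and MATR3 was at 0.04 and 0.11 with the 2 inhibitors (adjusted p = 0.721 and 0.272). SNHG14 fell with IMP1088 from 40.2, 41.6 and 42.9 CPM to 26.6, 25.4 and 31 CPM (−0.59 ± 0.19, adjusted p = 0.0159) and was at 29.3, 24.8 and 37.1 CPM with DDD86481 (−0.45, adjusted p = 0.0587). All treated SNHG14 libraries were below all untreated ones. The IMP1088 call of SNHG14 was lost without senescent IMP1088 replicate 1 or 2 (adjusted p = 0.0532 and 0.0629), and that of SNHG4 without senescent DMSO replicate 2 or senescent IMP1088 replicate 3 (0.0593 in each). SNHG28 fell with DDD86481, from 1.30, 1.81 and 1.48 CPM to 0.983, 0.679 and 0.491 CPM (−1.07 ± 0.30, adjusted p = 0.00593), and was at 1.16, 0.783 and 0.897 CPM with IMP1088 (−0.68, adjusted p = 0.0547). SLAMF8, opposite to SNHG28, fell with both (−1.76, adjusted p = 0.00104 with DDD86481; −1.38, 0.00419 with IMP1088), and its part in the SNHG28 counts was not tested.

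Several of the hosts with the largest or best known differences in senescence were not called with either inhibitor. SNHG3 stayed at 4.05, 4.30 and 3.81 CPM with IMP1088 and 4.37, 5.22 and 4.97 CPM with DDD86481, still below every control library (−0.03, 95% interval −0.48 to 0.42, adjusted p = 0.929; 0.23, adjusted p = 0.407). SNHG32 was at 114, 116 and 116 CPM and 127, 121 and 110 CPM, above every senescent DMSO library but not past the test (0.28, adjusted p = 0.108; 0.33, adjusted p = 0.0638). GAS5 was likewise above its senescent DMSO range in every treated library, at 101, 92.6 and 95.1 CPM with IMP1088 (0.30 ± 0.13, adjusted p = 0.0749) and 93.6, 86.2 and 83.2 CPM with DDD86481 (0.16, adjusted p = 0.345). When only the 6 libraries compared were fitted, GAS5 passed with IMP1088 (0.33, adjusted p = 0.000203), as did SNHG32 and SNHG16. That fit called 12 hosts in place of 9, and it also called more genes over all, 7841 of 13125 tested against 6374 of 14341.

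ZFAS1 overlapped its untreated range, at 70.4, 79.9 and 79.1 CPM with IMP1088 and 78.6, 78.6 and 70.8 CPM with DDD86481 (0.07 and 0.06, adjusted p = 0.733 and 0.767). SNHG1 was at 6.10, 8.33 and 5.72 CPM and 6.28, 6.69 and 6.75 CPM (−0.35 and −0.38, adjusted p = 0.106 and 0.0812). SNHG12 was at 1.95, 3.63 and 1.85 CPM and 2.18, 2.35 and 1.90 CPM. It was near 0 with IMP1088 but with a wide interval (−0.51 to 0.51, adjusted p = 0.995). SNHG15 was at 7.52, 7.32 and 7.01 CPM and 11.4, 9.66 and 6.81 CPM, overlapping senescent DMSO with DDD86481 and below it with IMP1088 (−0.24, adjusted p = 0.386). SNHG26, SNHG6, SNHG16 and SNHG21 were not called either: SNHG26 stayed at 0.328 to 1.04 CPM, SNHG6 at 18.6 to 22.6 CPM, SNHG16 at 87.6 to 111 CPM and SNHG21 at 1.64 to 2.46 CPM over the 6 treated libraries.

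**Figure D3:**
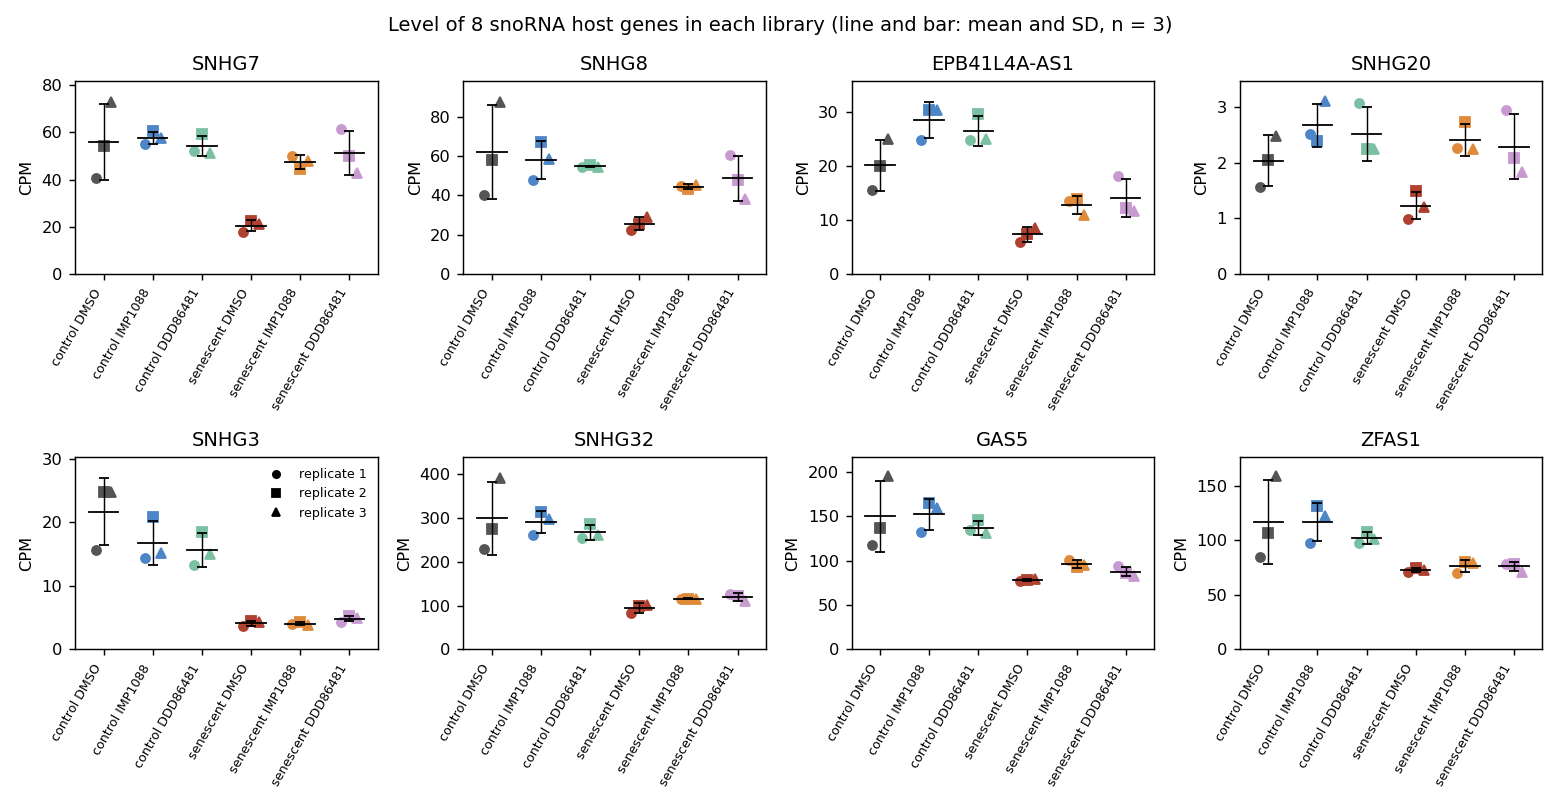
CPM of 8 host genes in each of the 18 libraries, with the mean and SD of each group (n = 3) as a line and bar and the replicate number as the point's shape. SNHG7, SNHG8, EPB41L4A-AS1 and SNHG20 (top) were higher in every inhibitor-treated senescent library than in senescent DMSO, whereas SNHG3 stayed between 3.70 and 5.22 CPM in all 9 senescent libraries.

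In control cells the inhibitors moved few hosts. With IMP1088, 1 host rose and 1 fell (3.7% each), where 16.3% and 17.4% of all genes rose and fell. With DDD86481, none rose (0.0%) and 4 fell (14.8%), against 17.8% and 18.7% of all genes. SNHG26 fell with both, from 2.02, 2.98 and 2.49 CPM to 0.953, 0.980 and 1.12 CPM with IMP1088 (2.44-fold, −1.29 ± 0.27, adjusted p = 0.0011) and to 1.36, 1.01 and 1.36 CPM with DDD86481 (−1.0 ± 0.27, adjusted p = 0.00651). All its treated libraries were below all control DMSO libraries. EPB41L4A-AS1 rose with IMP1088, from 15.5, 20 and 25 CPM to 24.8, 30.5 and 30.5 CPM (0.51 ± 0.18, adjusted p = 0.0312), and was at 24.8, 29.7 and 25 CPM with DDD86481 (0.40, adjusted p = 0.0828). Its groups overlapped, and the call was lost without control DMSO replicate 1 (0.35, 0.113) or 2 (0.52, 0.0661), without control IMP1088 replicate 2 (0.47, 0.0872) or 3 (0.48, 0.0827), under upper quartile scaling (0.45, 0.0576) and with only the compared groups in the fit (0.51, 0.0826).

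SNHG3, SNHG4 and SNHG6 fell with DDD86481 in control cells, but these calls were weak. SNHG3 was at 13.3, 18.5 and 15 CPM (−0.47 ± 0.17, adjusted p = 0.0349), SNHG4 at 0.626, 0.616 and 0.654 CPM against 1.57, 1.41 and 0.746 CPM (−0.99 ± 0.34, adjusted p = 0.029) and SNHG6 at 30.4, 37.1 and 36.1 CPM (−0.53 ± 0.17, adjusted p = 0.0205). The SNHG3 and SNHG6 values overlapped their control DMSO values, and leaving out 1 library at a time lost the call of SNHG3 in 4, of SNHG4 in 5 and of SNHG6 in 2 of 6 fits. Without control DMSO replicate 3, SNHG6 was at −0.22 (adjusted p = 0.223). With IMP1088 the 3 genes were at −0.36 ± 0.17, −0.58 and −0.38 (adjusted p = 0.105, 0.174 and 0.0943). With the replicate number as a block, which the libraries of these 2 groups share, SNHG3 passed (−0.36, adjusted p = 0.0327), for 3 hosts called with IMP1088 in place of 2. Over all genes the block called 5003 of 14341, against 4829 without it. The median over the hosts was −0.04 with IMP1088 and −0.17 with DDD86481, beside −0.00 and 0.00 over all genes.

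The control counts depended on which control DMSO library was present. Without replicate 1, IMP1088 gave 6 hosts lower and 0 higher, and DDD86481 gave 12 lower and 1 higher. Calls over all genes were then also more numerous, 5892 and 6317 of 14513 genes tested against 4829 and 5242 of 14341 with all libraries. Without replicate 2, the 2 inhibitors gave 1 and 2 hosts in all, with 4046 and 4531 of 14502 genes called. Without replicate 3, IMP1088 gave 3 higher (EPB41L4A-AS1 at 0.69, SNHG16 at 0.37 with adjusted p = 0.0108 and GAS5 at 0.26 with adjusted p = 0.0495) and 1 lower, and DDD86481 gave 2 higher and 2 lower, with 4069 and 4120 of 14493 genes called. SNHG7 and SNHG8, which rose in senescent cells, were at 0.04 and −0.09 with IMP1088 in control cells, and GAS5 and ZFAS1 at 0.02 and 0.00.

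To ask whether the inhibitors acted differently on the hosts in the 2 states, the interaction term of the fit was tested, which subtracts the change in control cells from that in senescent ones. With IMP1088, 6 hosts were called with a higher (22.2%) and 1 with a lower (3.7%) change in senescent cells, where 12.1% and 14.2% of all genes were. With DDD86481 these were 4 (14.8%) and 1 (3.7%), against 14.4% and 15.9%. The median difference over the hosts was 0.27 and 0.49, and −0.00 and −0.01 over all genes. Without control DMSO replicate 3 the host medians were 0.05 and 0.32, beside −0.02 and −0.01 over all genes.

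SNHG7 had the firmest difference between states, 1.17 ± 0.23 with IMP1088 (adjusted p = 0.000879) and 1.38 ± 0.23 with DDD86481 (adjusted p = 0.000196), and kept it on leaving out any 1 of the 12 libraries. SNHG8 differed by 0.89 ± 0.29 and 1.11 ± 0.29 (adjusted p = 0.027 and 0.00706), SNHG5 by 0.81 ± 0.26 and 0.95 ± 0.26 (0.0274 and 0.0109) and SNHG29 by 0.49 ± 0.17 and 0.55 ± 0.17 (0.0362 and 0.0176). SNHG14 differed the other way, by −0.80 ± 0.27 and −0.73 ± 0.27 (0.0318 and 0.0421). EPB41L4A-AS1 and SNHG20, which rose in senescent cells, did not pass this test (0.30 and 0.54 for EPB41L4A-AS1, adjusted p = 0.43 and 0.125; 0.57 and 0.58 for SNHG20, 0.23 and 0.211). Without control DMSO replicate 3, only SNHG7 (0.94, adjusted p = 0.00071) and SNHG14 (−0.54, 0.0317) remained called with IMP1088, and SNHG7 (1.15), SNHG8 (0.78), SNHG5 (0.60) and SNHG29 (0.35) with DDD86481. Those fits called 3215 and 3622 of 14493 genes tested, against 3761 and 4351 of 14341 with all libraries.

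**Figure D4:**
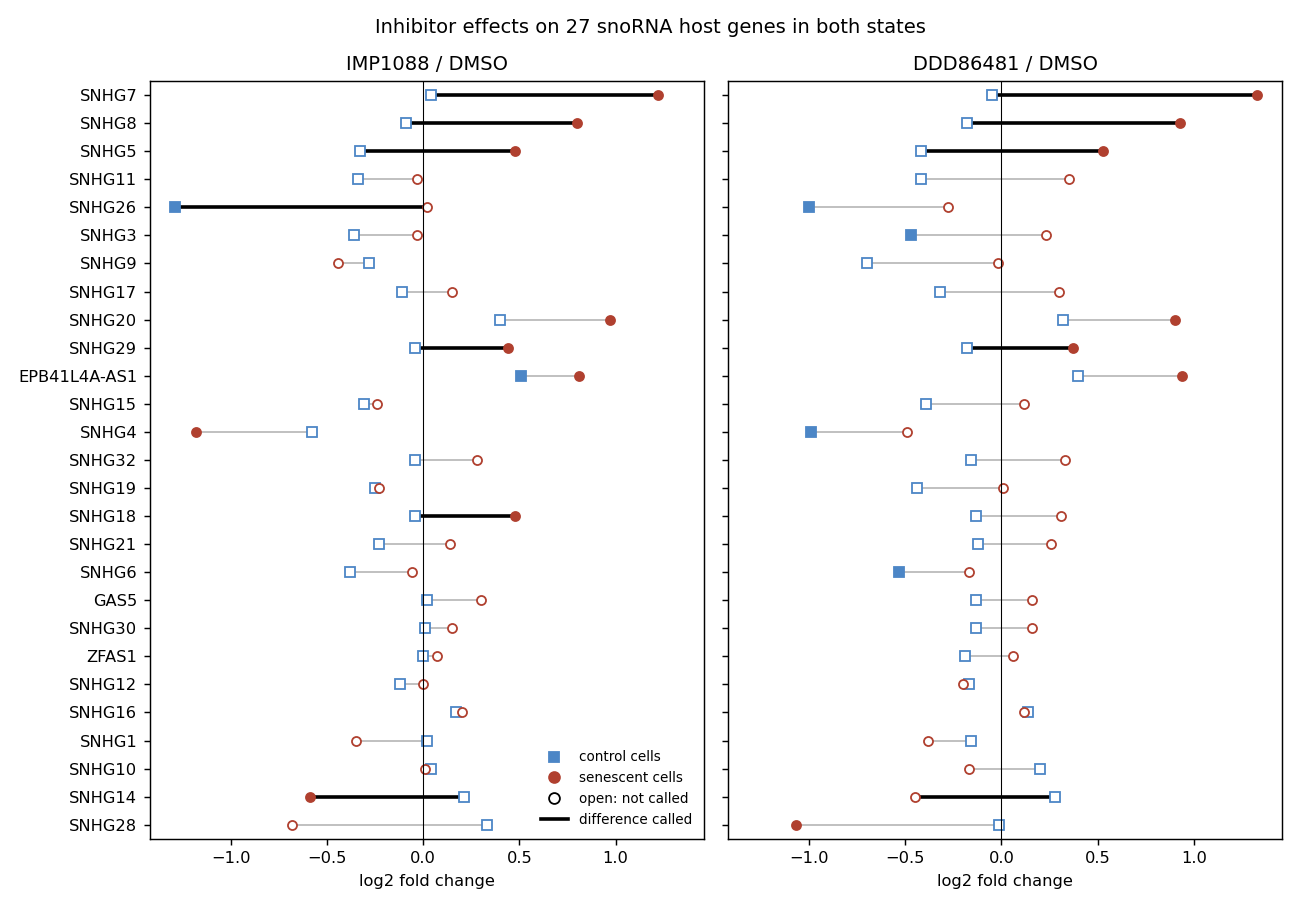
Log2 fold change of each of the 27 tested hosts with IMP1088 (left) and DDD86481 (right) over DMSO, in control cells (squares) and senescent cells (circles), filled where called. A thick black line marks a called difference between the states, which for SNHG7 was 1.17 and 1.38.

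The 2 inhibitors were set against each other in each state. Their doses differ, 300 nM for IMP1088 and 1.5 µM for DDD86481, so this is a comparison of the treatments as given, at the same 3 days. No gene of 14341 was called between them in senescent or in control cells by edgeR (0% in each state), and none by DESeq2. At an unadjusted p under 0.05 there were 570 genes (3.97%) in senescent and 141 (0.983%) in control cells, and 0 of the 27 hosts in either. The hosts' log2 differences, IMP1088 minus DDD86481, ran from −0.70 to 0.39 in senescent and from −0.29 to 0.42 in control cells. The 95% interval of the difference lay within ±0.5 for 10 hosts in senescent and 11 in control cells and within ±1 for 23 and 24, so that a moderate difference between the compounds could not be seen at this precision for most hosts.

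Hosts with a pyrimidine run of at least 4 bases from a C at the annotated first base and hosts without one were set side by side, as a description. A start annotated a few bases off would hide a TOP start, so the hosts without the run may include TOP hosts. In senescent cells, 8 of the 9 hosts with the run were lower and none higher, with a median of −0.96, and of the 15 without it 10 were lower and 3 higher, with a median of −0.87, where 36.0% of all genes tested were lower and 32.5% higher. With IMP1088 in senescent cells, 3 of the 9 rose and 1 fell (median 0.07), against 4 and 1 of the 15 (median 0.15). With DDD86481, 2 of the 9 and 4 of the 15 rose (medians 0.06 and 0.23). These shares of risers lie near those of all genes, 20.6% with IMP1088 and 20.1% with DDD86481. The strongest riser, SNHG7, has a run of 4 bases, the shortest length counted, while SNHG8, EPB41L4A-AS1 and SNHG20 have none at the annotated base.

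Other genes of the pathway were described by fixed lists. The shares over all genes tested, to be set beside each list, were 36.0% lower and 32.5% higher in senescent against control cells. In senescent cells 20.6% and 20.1% rose and 23.9% and 23.1% fell with IMP1088 and DDD86481. In control cells 16.3% and 17.8% rose and 17.4% and 18.7% fell. Of 84 tested ribosomal protein genes, which share the TOP start, 68 were lower (81.0%) and 1 higher (1.2%) in senescent cells (median −0.61). In senescent cells 20 rose and 2 fell with IMP1088 (median 0.27) and 16 rose and 3 fell with DDD86481 (0.19), whereas in control cells none rose with either and 7 and 24 fell (−0.20 and −0.34). Of 19 tested protein-coding genes that carry snoRNAs in their introns, 9 were lower (47.4%) and 2 higher (10.5%) in senescent cells (median −0.23). With the 2 inhibitors there, 10 (52.6%) and 9 (47.4%) rose and 1 and 1 (5.3% each) fell (0.27 and 0.26). EEF1B2, an elongation factor subunit, was lower in senescent cells (−0.48) and rose with IMP1088 (0.42), and EEF2, the translocase, was at 0.05 in senescent cells and rose with both inhibitors there (0.44 and 0.26), while the helicase EIF4A2 fell with both (−0.34 and −0.44). In control cells 3 genes of this list rose with IMP1088 and 4 with DDD86481 and none fell, and EEF2 rose there by 0.64 and 0.58. EIF4A1, also on this list, had no count. The reason was not tested, so this is not read as absence from the cells.

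The proteins that package the snoRNAs were taken next. Of 19 snoRNP genes, 8 were higher (42.1%) and 7 lower (36.8%) in senescent cells (median 0.21), against 32.5% and 36.0% of all genes tested. The share that was lower was thus near the background. The box C/D core proteins FBL, the methyltransferase, and NOP56 were both at −0.54 and NOP58 was at −0.64, whereas SNU13 was at 0.35. NOP58 rose with the inhibitors in senescent cells (0.83 and 0.78), as 7 of the 19 genes did with each, with 1 lower. This is 36.8% higher and 5.3% lower with each, where 20.6% and 20.1% of all genes rose and 23.9% and 23.1% fell. In control cells 3 rose and 1 fell with IMP1088, and 4 rose and 3 fell with DDD86481.

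Of 22 nonsense-mediated decay factors, 6 were higher (27.3%) and 8 lower (36.4%) in senescent cells (median −0.14), near the 32.5% and 36.0% of all genes tested. The helicase UPF1 was higher (0.36), and UPF3B, which links the exon junction to UPF2, was lower (−0.99). In senescent cells UPF1 fell with IMP1088 and DDD86481 (−0.50 and −0.34) while UPF2 (0.81 and 0.89) and UPF3B (0.94 and 1.02) rose. Over the list 5 rose (22.7%) and 2 fell (9.1%) with IMP1088 there, and 6 rose (27.3%) and 3 fell (13.6%) with DDD86481. In control cells 5 rose and 1 fell with IMP1088, and 6 rose and 1 fell with DDD86481. Of 14 tested mRNAs known as decay targets, several of them also targets of the stress response, 5 were higher (35.7%) and 2 lower (14.3%) in senescent cells. With IMP1088 in senescent cells 6 rose (42.9%) and 2 fell (14.3%), and with DDD86481 6 rose (42.9%) and 1 fell (7.1%). ATF4, the transcription factor of the integrated stress response, was at −0.67 in senescent cells and rose by 1.35 and 1.30 with the inhibitors there. In control cells 4 of the decay targets rose and 3 fell with IMP1088, and 5 rose and 3 fell with DDD86481. ATF4 rose there by 0.38 with IMP1088 (adjusted p = 0.0382) and was at 0.32 with DDD86481 (adjusted p = 0.073).

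Long non-coding RNAs that are not snoRNA hosts were taken for comparison. Of 13 tested, 10 were lower (76.9%) and 2 higher (15.4%) in senescent cells (median −0.84), against 36.0% and 32.5% of all genes tested. In senescent cells 5 rose (38.5%) and 3 fell (23.1%) with IMP1088, and 6 rose (46.2%) and 3 fell (23.1%) with DDD86481 (medians −0.03 and 0.11). In control cells 5 rose (38.5%) and 1 fell (7.7%) with each inhibitor (medians 0.12 and −0.03). MALAT1 and NEAT1, both retained in the nucleus, were lower in senescent cells (−1.94 and −1.30) and rose with IMP1088 there (0.75 and 0.96), and NEAT1 rose by 1.52 with DDD86481.

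Genes that start head to head with a host, within 1000 bases on the other strand, were given beside it. The first listed start of each gene was used, so neighbours of other starts are not seen. ZNFX1 was not found beside ZFAS1 by this rule. SEMA5A starts 125 bases from SNHG18. In senescent cells SNHG18 was lower (−0.70) while SEMA5A was at 0.11 (adjusted p = 0.666), and with IMP1088 SNHG18 rose by 0.48 while SEMA5A fell (−1.07, adjusted p = 0.000388). TRAF7 starts 424 bases from SNHG19, and was higher in senescent cells (0.53, adjusted p = 1.01e-05) while SNHG19 was lower (−1.0). ZBTB37, whose start lies 665 bases from that of GAS5 with the transcripts overlapping, was lower with GAS5 in senescent cells (−0.71, adjusted p = 0.00102) but fell further with IMP1088 and DDD86481 (−0.96 and −1.03), where GAS5 was at 0.30 and 0.16. GLRX5, 178 bases from SNHG10, was at −0.24 in senescent cells (adjusted p = 0.0782) and rose with both inhibitors (0.46 and 0.40, adjusted p = 0.00324 and 0.0101), where SNHG10 was at 0.01 and −0.17. Whether host and neighbour share a promoter was not tested.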

How the data were processed

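Gene counts of 18 libraries, 6 groups of 3, were used as deposited: whole-number counts of reads per gene symbol in 1 table, not normalized by the authors. The submitters' processing notes name STAR 2.7.8a, DRAGEN, hg38 and DESeq2 1.32.0, whereas the study's methods name TopHat, hg19 and Ensembl annotation for the RNA-seq. The libraries were made with a directional kit, and the study's methods name a first-strand setting for the TopHat alignment and list HTSeq among the software. Which of these pipelines made the table, and the strand setting of the counting step, are not given in the sources used here, so overlapping and antisense genes are uncertain. Libraries held 16143716 to 23189950 counts, and 6836 of 28266 rows had none. Columns were mapped to samples by their names, in which the DDD86481 libraries are called PCLX001.

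Counts were scaled by TMM, filtered with filterByExpr (14341 genes kept, 99.962% of counts) and fitted in 1 quasi-likelihood model over the 6 groups (edgeR 4.0.16, R 4.3.3). Each comparison was a 2-sided contrast with Benjamini-Hochberg adjustment over all kept genes, called at 0.05. Fold changes used the default prior count of edgeR's fit, and a prior count of 2 was used for the log CPM values from which pairing was judged. Each standard error is the fold change over the root of its F statistic, and intervals are 95% intervals. DESeq2 1.42.0 was an alternative, as were upper quartile scaling, no filter, only the compared groups, the replicate number as a block and leaving out each library. No replicates were duplicates (smallest chi-square per gene between replicates 4.89). Same-numbered libraries were taken to pair where the correlation of their deviations was over 0.1 for all 3 numbers: control DMSO with control IMP1088 (0.394, 0.123 and 0.231), control IMP1088 with control DDD86481 (0.101, 0.27 and 0.129) and senescent IMP1088 with senescent DDD86481 (0.117, 0.126 and 0.119). On simulated counts, the IMP1088 contrast in senescent cells called 81 of 100 genes changed 2-fold, 40 of 100 changed 1.5-fold and 3 of 13806 unchanged genes (14003 genes run), and the difference of the IMP1088 effect between states called 62 of 100, 17 of 100 and 7 of 13803 (14001 genes run).

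Values in every library were given for GAS5, ZFAS1, EPB41L4A-AS1, SNHG1, SNHG12 and SNHG15 and for the 3 largest rises and falls among the called hosts of each of the first 5 comparisons, and for SNHG5 and SNHG29, which were added after their values were seen. Lists are shown by counts and medians, with up to 4 examples each. The members, the lists and these rules were chosen with earlier results of these data known. Of the 28266 symbols, 26986 (95.5%) matched RefSeq GRCh38.p14, from which start windows were read. Exon overlaps are from GENCODE (GRCh37). SNHG6, SNHG9, SNHG15 and SNHG25 had no promoter entry.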

Additional observations from a re-analysis of the deposited data

Results flagged for a closer look

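The inhibitor effect differed between senescent and control cells, by the interaction term of the edgeR fit, for 7 hosts with IMP1088 and 5 with DDD86481. With IMP1088 the differences in log2 change, senescent minus control, were 1.31 for SNHG26 (adjusted p = 0.0359), 1.17 for SNHG7 (0.000879), 0.89 for SNHG8 (0.027), 0.81 for SNHG5 (0.0274), 0.52 for SNHG18 (0.0398), 0.49 for SNHG29 (0.0362) and −0.80 for SNHG14 (0.0318). With DDD86481 they were 1.38 for SNHG7 (adjusted p = 0.000196), 1.11 for SNHG8 (0.00706), 0.95 for SNHG5 (0.0109), 0.55 for SNHG29 (0.0176) and −0.73 for SNHG14 (0.0421). In control cells SNHG26 fell by 1.29 with IMP1088, and in senescent cells it was called with neither inhibitor. With IMP1088 it was at 0.02 in senescent cells (interval −0.71 to 0.75), from only 0.659 to 1.06 CPM in senescent DMSO. That interval holds falls as well as rises, so the missing call does not show that SNHG26 was unchanged in senescent cells.

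Leaving out 1 of 12 libraries at a time, the IMP1088 calls were lost in 0 fits for SNHG7, 5 each for SNHG5 and SNHG8, 6 for SNHG18, 7 for SNHG14 and 8 each for SNHG26 and SNHG29. The DDD86481 calls were lost in 0 fits for SNHG7, SNHG8, SNHG5 and SNHG29 and in 10 for SNHG14. These differences rest on control DMSO, in which replicate 3 stood apart.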

How the results depend on the processing

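No called direction was reversed under any alternative run. Counts of hosts called stayed within 1.5 times the reported count in 40 of 45 settings that kept all libraries and in 49 of 66 that left out 1. These totals include the comparisons of the inhibitors with each other, which counted as unchanged because no host was called in any run. The exceptions were in control cells and in the differences between states, and the cause was not tested beyond the fewer samples of each fit. For IMP1088 in control cells (2 hosts) the count was 1 under upper quartile scaling, 1 with only the compared groups, 3 with the replicate block and 1 to 6 on leaving out 1 library. For DDD86481 in control cells (4 hosts) it was 7 with no filter, 1 with only the compared groups and 1 to 13 on leaving out 1 library. For the difference between states it was 1 to 10 with IMP1088 (7 hosts) and 4 to 14 with DDD86481 (5 hosts, or 8 with no filter) on leaving out 1 library. Calls over all genes also moved. For IMP1088 in control cells they numbered 4818 (upper quartile), 2716 of 13580 (compared groups) and 5003 (block), against 4829 of 14341 genes. For DDD86481 in control cells they numbered 5214 of 21430 (no filter) and 2842 of 13558 (compared groups), against 5242 of 14341. The DDD86481 difference between states had 4429 of 21430 with no filter, against 4351 of 14341. On leaving out 1 library the count was 20 to 24 for senescent against control cells (22), 7 to 8 for IMP1088 (9) and 6 to 8 for DDD86481 (7) in senescent cells. Fits without 1 library tested 14493 to 14534 genes. They called 9239 to 10027 for senescent against control cells, and 5454 to 5617 (IMP1088) and 5282 to 5812 (DDD86481) in senescent cells. In control cells they called 3505 to 5892 and 3773 to 6317, and for the difference between states 2738 to 5242 and 3419 to 5796. With all libraries the calls were 9827, 6374, 6189, 4829, 5242, 3761 and 4351 of 14341, in that order. Among the hosts with a call lost on leaving out 1 library, SNHG4, SNHG10, SNHG20 and SNHG21 had few reads, and the part of depth in this was not tested.

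With the replicate number as a block, the counts were 23 for senescent against control cells, 9 for IMP1088 and 8 for DDD86481 in senescent cells (SNHG32 gained, 0.34, adjusted p = 0.0432), 4 for DDD86481 in control cells and 7 and 5 for the differences between states (with DDD86481, SNHG14 lost at −0.74, 0.0504, and SNHG3 gained at 0.69, 0.0157). Over all genes the block called 9913, 6510, 6259, 5412, 3974 and 4555 of 14341 in these comparisons, in the same order. Without the block these were 9827, 6374, 6189, 5242, 3761 and 4351. The numbers pair control DMSO with control IMP1088, where SNHG3 was the change (under the block, 3 hosts), and the 2 inhibitors in each state, where no host was called with or without the block. Between the other groups the correlation was not over 0.1 for all 3 numbers, and whether those libraries pair is not known.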
